A study of Homo sapiens with 6 samples.

Results

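Keratins are the filament proteins of epithelial cells, and 10 keratin genes that mark the layers of the bladder lining were followed here: KRT5, KRT6A, KRT7, KRT8, KRT13, KRT17, KRT18, KRT19, KRT20 and KRT23. They were found by gene name among 10066 assembled loci, and all 10 names were present. KRT5 and KRT6A had been assembled into 1 locus with 1 set of values, so the 10 names stand for 9 loci. RNA came from the human bladder cancer lines RT4, RT112 and SW780, treated for 2 days with quisinostat, a histone deacetylase inhibitor, or with the vehicle DMSO. The quisinostat dose was 50 nM in RT4, 10 nM in RT112 and 25 nM in SW780 cells. RT4 and RT112 are labelled as carrying an FGFR3-TACC3 fusion, and SW780 an FGFR3-BAIBP2L1 fusion (spelled as in the labels), so the treated and the DMSO cells of a line share their fusion and no line without a fusion was included. There was 1 library for each line and treatment, 6 in all, each line is a single established cell line, and dose and line cannot be told apart. One of the labels of the quisinostat library of SW780 cells names the line SW781, and its other labels name SW780. A difference within a line therefore has no replicate check, and no SD, interval or p-value is given for it.

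Keratin filaments are built from pairs of 1 type I and 1 type II chain, so a cell needs message for both types. KRT8 (type II) and KRT18 (type I) form the pair of simple, single-layered epithelia, and KRT7 (type II) and KRT19 (type I) accompany them in the urothelium. KRT20 (type I) marks the large umbrella cells that face the urine. KRT13 (type I) is found below the umbrella cells and in non-cornified squamous epithelia, while KRT5 (type II) marks the basal layer. KRT6A (type II) and KRT17 (type I) are keratins of injured and squamous epithelium, and both are used as markers of basal or squamous bladder tumours. KRT23 (type I) is a less studied member. It was first described as a gene that histone deacetylase inhibitors induce in pancreatic cancer cells.

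All 10 genes lie in the 2 keratin gene clusters of the genome (GENCODE 29 annotation, GRCh38). On chromosome 12 are the type II genes KRT7 (52232520 to 52252186, plus strand), KRT6A (52487174 to 52493257, minus strand), KRT5 (52514575 to 52520687, minus strand) and KRT8 (52897187 to 52949954, minus strand). KRT18 (52948871 to 52952901, plus strand) is the type I gene that lies there too, and its annotated span overlaps that of KRT8 by 1084 bases on the other strand. On chromosome 17, all on the minus strand, are KRT20 (40875941 to 40885227), KRT23 (40922696 to 40937634), KRT13 (41500981 to 41505705), KRT19 (41523617 to 41528308) and KRT17 (41619441 to 41624842). The antisense gene KRT7-AS, 2401 bases long, lies wholly within the span of KRT7. The library kit keeps strand, but whether strand was used in assembly is not given in the sources used here, so reads of overlapping genes may not be told apart.

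KRT6A and KRT5 are neighbours, 21317 bases apart, and their coding sequences are identical at 1389 of 1683 aligned bases (82.5%), with a longest identical run of 104 bases. The sequences below are shown because the deposited table cannot separate these 2 genes: they give a 60-base coding stretch on which both are the same, and the 60-base window where they differ most. The identical stretch is at coding bases 595 to 654 of KRT5 and 580 to 639 of KRT6A (counted from 1 at the start codon), and the same letters occur in the transcripts of KRT6B and KRT6C. The second stretch is at coding bases 17 to 76 of KRT5 and 20 to 79 of KRT6A, and capitals mark the 30 bases at which the pair differs. Its KRT6A letters also occur in KRT6B and KRT6C, so they do not tell KRT6A from these genes.
KRT5 and KRT6A, identical: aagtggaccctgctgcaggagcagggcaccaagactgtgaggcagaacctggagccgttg
KRT5, most different: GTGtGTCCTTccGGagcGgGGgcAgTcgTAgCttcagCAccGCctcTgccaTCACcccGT
KRT6A, most different: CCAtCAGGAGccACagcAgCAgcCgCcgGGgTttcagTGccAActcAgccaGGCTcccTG
KRT6A also resembles KRT6B (97.5% of coding bases identical) and KRT6C (97.9%), which were not analysed here. Of all 50-base runs in its longest coding transcript, 39.1% occur in transcripts of other genes. The same share was 28.9% for KRT18, where 43 other genes share such runs, 16.0% for KRT17, 4.0% for KRT5 and at most 1.9% for KRT7, KRT8, KRT13 and KRT19. It was 0 for KRT20 and KRT23, whose reads can be placed without a competing copy of that length. Values of KRT5/KRT6A, KRT18 and KRT17 are uncertain to the extent that reads were shared out among such copies. Among keratin pseudogenes, KRT8P3 was in the table, at 1.07 to 5.45 FPKM against 120.68 to 290.66 FPKM for KRT8.

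The upstream sequences of KRT5 and KRT20 are shown because the KRT5/KRT6A locus and KRT20 lie at opposite ends of the response in RT112 cells among the loci with a promoter in the table used, although the part of KRT5 in its shared locus is not known. RefSeq promoters (GRCh38.p14) were matched for 3 of the 10 genes: KRT5, KRT20 and KRT8. Each line below is the 250 bases before the RefSeq start, read on the gene's own minus strand, with the letters ATAAAA, a variant of the TATA box, in capitals.
KRT5, chr12:52520395-52520644: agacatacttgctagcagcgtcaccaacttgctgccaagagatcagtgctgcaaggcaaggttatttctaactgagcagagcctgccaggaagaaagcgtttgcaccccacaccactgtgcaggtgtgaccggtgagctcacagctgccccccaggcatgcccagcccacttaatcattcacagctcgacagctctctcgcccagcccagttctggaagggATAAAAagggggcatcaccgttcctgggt
KRT20, chr17:40885243-40885492: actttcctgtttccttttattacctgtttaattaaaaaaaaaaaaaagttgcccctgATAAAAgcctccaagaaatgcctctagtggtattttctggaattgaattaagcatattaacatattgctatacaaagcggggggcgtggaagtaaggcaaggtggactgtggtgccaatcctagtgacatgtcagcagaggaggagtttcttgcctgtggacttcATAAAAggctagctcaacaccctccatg
ATAAAA begins 29 bases before the start in KRT5, and 28 and 193 bases before it in KRT20, which also has it 236 bases before the start on the other strand. On either strand, ATAAAA is present in 14.8% of 35116 promoters of the same length. Neither sequence holds TATAAA (10.7% of promoters), GGGCGG (42.6%) or TGANTCA (6.6%) on either strand, and ATAAAA and TATAAA can overlap. The KRT5 sequence has a GC content of 56.0% with 6 CpG, and that of KRT20 41.2% with 2 CpG.

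Levels are FPKM, fragment numbers divided by transcript length and library size, as deposited. Because FPKM is per length, levels of different genes can be set side by side. The response of a locus is the log2 ratio of quisinostat over DMSO FPKM within a line, taken for the 9112 loci above 0 in all 6 libraries. Its median over all loci was 0.08 in RT4 cells, 0.06 in RT112 cells and 0.04 in SW780 cells. Read depth is unknown, since FPKM values here show no whole-read steps. In each library, between 213 and 534 loci were at 0 and the median FPKM was between 6.59 and 7.39. All 6 epithelial markers (EPCAM, CDH1, CLDN4, CLDN7, KRT8 and KRT18) were present, with a summed level between 548.2 and 873.92 FPKM. CLDN7 shares its assembled locus with other genes, so its values are those of the whole locus. All 8 urothelial markers were present too, with 149.64 to 354.86 FPKM, and UPK3A was at 0 in both RT112 libraries. Of 6 fibroblast markers, 3 were in the table. Their sum was 135.38 FPKM in RT112 DMSO cells and 134.54 FPKM in RT112 quisinostat cells, nearly all of it LUM (135.1 and 132.8 FPKM), and 1.16 to 15.99 FPKM in the other 4 libraries, with LUM at 0 in RT4 DMSO cells. The 5 blood cell markers and the 3 endothelial markers searched were not among the gene names used here.

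The ratios also followed transcript GC content in every line. Across 8407 loci that share their libraries, and as a description, Spearman's rho of ratio against GC content was -0.49 in RT4 cells, 0.44 in RT112 cells and -0.22 in SW780 cells. The keratins are mostly GC-rich: 8 of the 9 loci lie above the median GC content of all loci (48.2%), from KRT23 at 50.3% up to KRT7 at 62.9%, while KRT20 has 45.7%. For this reason the ratios of each keratin among the 10 are followed by their values after a smooth curve of ratio on GC content had been subtracted in each line, called GC-corrected ratios. Ratios of other genes are plain ones unless said otherwise. In bulk RNA, fewer cells that use a keratin and less keratin message per cell cannot be told apart, which holds for every value below.

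Without drug, all 3 lines held the simple epithelial keratins at high levels and differed widely in KRT13 and KRT5/KRT6A. KRT19 stood at 636.99 FPKM in RT4 cells, 240.35 in RT112 cells and 394.96 in SW780 cells, which placed it 35th, 114th and 43rd among 10066 loci. KRT18 ranked 123rd, 109th and 41st, KRT8 101st, 215th and 73rd, and KRT7 152nd, 355th and 104th in the same lines. The highest of the 3 DMSO levels was between 1.72 times (KRT18) and 2.65 times (KRT19) the lowest for these 4 genes. KRT13 was 132 times as high in RT112 cells (430.94 FPKM, rank 53) as in RT4 cells (3.26 FPKM, rank 7079), and SW780 cells lay between at 200.5 FPKM. KRT5/KRT6A reached 9.632 FPKM in RT112 cells and stayed under 1 FPKM in SW780 (0.447) and RT4 (0.043) cells. KRT17 was highest in SW780 (130.25 FPKM), then RT4 (82.51) and RT112 cells (31.1). KRT20 was low in every DMSO library, at 3.215 FPKM in RT4 cells, 1.11 in RT112 cells and 0.356 in SW780 cells. KRT23 was at 0.194, 5.495 and 2.302 FPKM in these lines. With 1 library per line there is no spread against which neighbours in any of these orders could be tested.

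**Figure D1:**
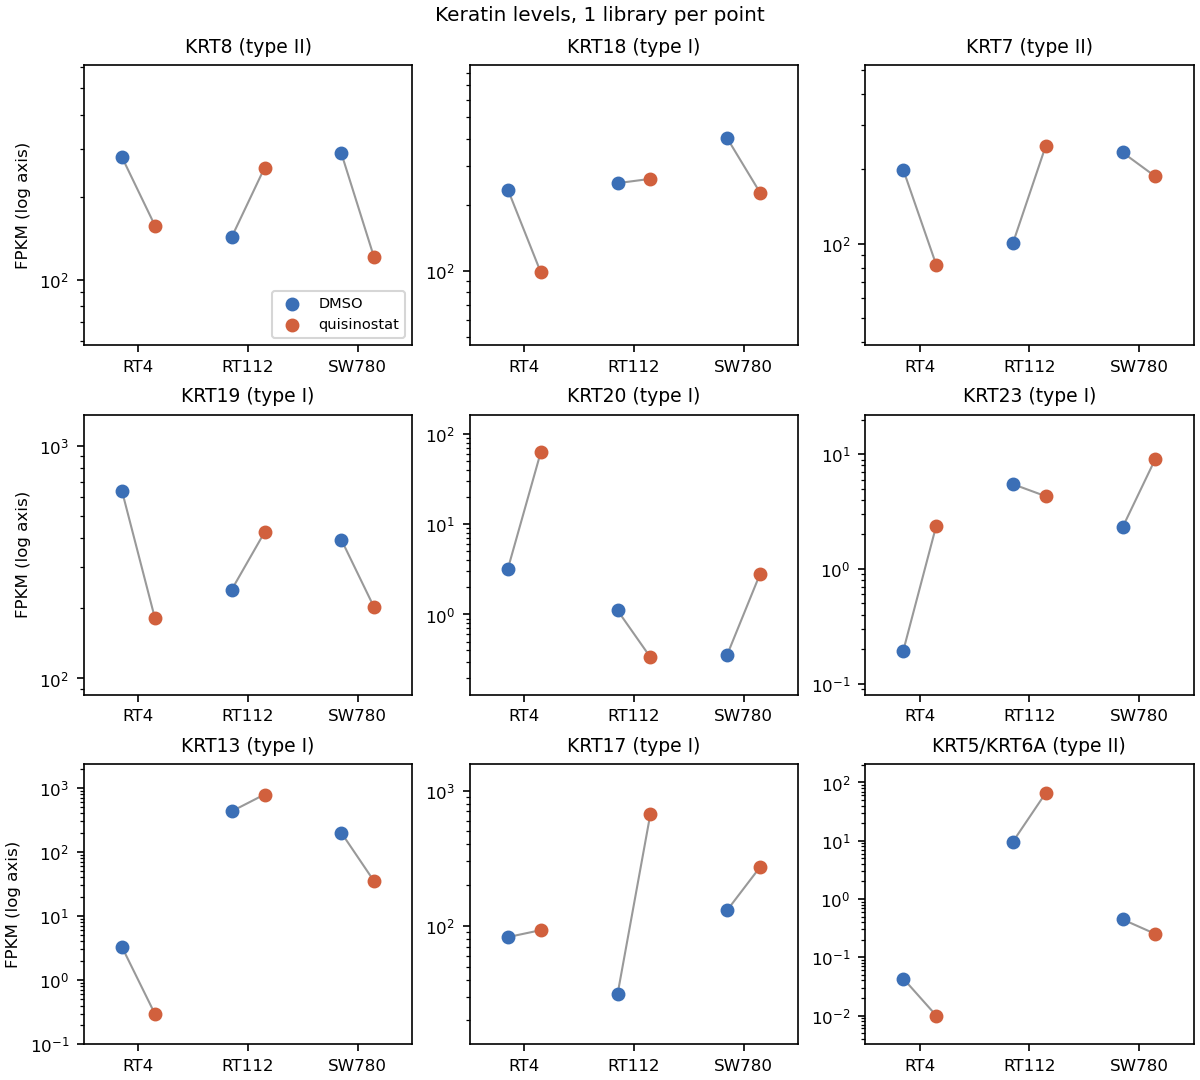
FPKM of the 9 keratin loci (log axis, a different range in each panel) in RT4, RT112 and SW780 cells, with 1 point per library, DMSO in blue and quisinostat in orange, joined within a line. KRT8, KRT7, KRT19, KRT13 and KRT5/KRT6A slope down in RT4 and SW780 and up in RT112 cells, KRT20 and KRT23 slope the other way, and KRT17 slopes up in every line, only slightly in RT4 cells (82.51 to 92.88 FPKM).

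Among the simple epithelial keratins, KRT8, KRT7 and KRT19 were lower with quisinostat in RT4 and SW780 cells and higher in RT112 cells. KRT8 went from 280.07 to 157.86 FPKM in RT4, from 290.66 to 120.68 in SW780 and from 143.1 to 256.38 in RT112 cells. These are log2 ratios of -0.83, -1.27 and 0.84, and -0.66, -1.25 and 0.71 after GC correction. The longest coding transcript of KRT8 has an atypical GC content of 53.4% against a median of 58.6% over its coding transcripts, and with that median the corrected ratios were -0.26, -1.13 and 0.40. KRT8 thus kept its direction in each line under both corrections.

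KRT19, the smallest keratin, which lacks most of the usual tail, went from 636.99 to 181.43 FPKM in RT4 and from 394.96 to 202.01 in SW780 cells, and from 240.35 to 424.26 in RT112 cells. Its log2 ratios were -1.81, -0.97 and 0.82 in that order. In RT112 cells the ratio of KRT19 was near that of loci of its GC content, and the corrected value was 0.10, whereas -0.85 remained in RT4 and -0.69 in SW780 cells. KRT7, which is used by pathologists to recognise urothelial tumours, went from 198.29 to 82.15 FPKM in RT4, from 233.28 to 186.45 in SW780 and from 100.31 to 248.12 in RT112 cells. KRT7 had plain log2 ratios of -1.27, -0.32 and 1.31, and corrected ones of -0.19, -0.01 and 0.50, so most of its difference in RT4 and SW780 cells was shared by loci of like GC content. With the median GC content over transcripts, -0.47, -0.11 and 0.70 remained for KRT7.

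KRT18, the partner of KRT8, did not follow it in RT112 cells. It went from 234.58 to 98.7 FPKM in RT4 (log2 ratio -1.25), from 402.63 to 227.7 in SW780 (-0.82) and from 251.16 to 262.76 in RT112 cells (0.07). GC-corrected ratios of KRT18 were -0.80, -0.71 and -0.28. With the median GC content over transcripts they were -0.69, -0.69 and -0.37, which put KRT18 under -0.3 in all 3 lines, as were 7.57% of the loci with a GC value. The level of KRT8 relative to KRT18 was 1.19 in RT4 cells, 0.722 in SW780 cells and 0.57 in RT112 cells with DMSO. With quisinostat it was higher in RT4 (1.6) and RT112 cells (0.976) and lower in SW780 cells (0.53). KRT7 relative to KRT19 was higher with quisinostat in every line, 0.453 against 0.311 in RT4, 0.585 against 0.417 in RT112 and 0.923 against 0.591 in SW780 cells.

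The umbrella cell keratin KRT20 had the largest log2 ratios of the members in RT4 and SW780 cells. It went from 3.215 to 62.7 FPKM in RT4 cells, 19.5 times as high, and from 0.356 to 2.799 FPKM in SW780 cells, 7.87 times as high. In RT112 cells it went from 1.11 to 0.336 FPKM, 0.303 of the DMSO level. These are log2 ratios of 4.29, 2.98 and -1.72, and 4.02, 2.88 and -1.62 after GC correction. In RT4 cells 1.37% of all loci had a higher ratio, in SW780 cells 1.36%, and in RT112 cells 1.35% had a lower one. Of the 6 KRT20 values, 4 lie under 3 FPKM, and with 1 FPKM added to each value the ratios were 3.92, 1.49 and -0.66, so the size of the difference in RT112 cells rests on low values while RT4 cells with quisinostat stand clearly apart. The highest KRT20 level over the 3 lines was 9.04 times the lowest with DMSO and 187 times with quisinostat. Uroplakins, plaque proteins of the same umbrella cells, were mixed beside KRT20. UPK1A (-6.17, 2.21 and -4.97 in RT4, RT112 and SW780 cells), UPK3B (-1.81, 1.35 and -2.26) and UPK2 (-2.92, 0.58 and -2.49, with 0.06 in RT112 cells after GC correction) had the opposite sign to KRT20, and UPK1B (0.99, 0.46 and -0.83) shared its sign in RT4 cells.

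KRT23 showed the same order of responses as KRT20. It went from 0.194 to 2.374 FPKM in RT4, from 2.302 to 9.141 in SW780 and from 5.495 to 4.311 in RT112 cells. Its log2 ratios stood at 3.61, 1.99 and -0.35, and 3.57, 1.95 and -0.36 after GC correction. With 1 FPKM added, the ratio of KRT23 in RT4 cells was 1.498, in SW780 cells 1.62 and in RT112 cells -0.29. Before treatment the highest DMSO level of KRT23 was 28.3 times the lowest, and with quisinostat 3.85 times.

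KRT13 separated the lines further after treatment. It went from 430.94 to 789.15 FPKM in RT112 cells, where it became the 21st highest locus, from 200.5 to 34.87 FPKM in SW780 cells and from 3.26 to 0.296 FPKM in RT4 cells. In the same order, KRT13 had log2 ratios of 0.87, -2.52 and -3.46, and 0.45, -2.37 and -2.89 after GC correction. In RT4 cells 0.647% of all loci, and in SW780 cells 0.955%, had a lower ratio than KRT13. With 1 FPKM added, the ratio in RT4 cells was -1.72, because both levels there are low, whereas the SW780 value of -2.49 hardly moved. The highest KRT13 level over the 3 lines was 132 times the lowest with DMSO and 2660 times with quisinostat.

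KRT17 was the member whose level was higher with quisinostat in all 3 lines, although by little in RT4 cells. In RT112 cells it went from 31.1 to 670.55 FPKM, 21.6 times as high (log2 ratio 4.43), which took it from rank 1380 to rank 25, and 0.724% of all loci had a higher ratio there. In SW780 cells KRT17 went from 130.25 to 271.26 FPKM (1.06), and in RT4 cells from 82.51 to 92.88 FPKM (0.17). Because loci as GC-rich as KRT17 (61.8%) were mostly lower in RT4 and higher in RT112 cells, its corrected ratios were 1.13 in RT4 cells, 3.71 in RT112 cells and 1.34 in SW780 cells.

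KRT5/KRT6A, the basal and injury keratins of the shared locus, were above 1 FPKM only in RT112 cells. There the locus went from 9.632 to 66.22 FPKM, 6.88 times as high, with a log2 ratio of 2.78 (2.48 after GC correction), and 2.23% of all loci had a higher ratio. In SW780 cells it went from 0.447 to 0.251 FPKM and in RT4 cells from 0.043 to 0.01 FPKM. These levels are so low that the log2 ratios of -0.83 and -2.15 (-0.75 and -1.76 after GC correction) became -0.21 and -0.05 with 1 FPKM added. Which of KRT5 and KRT6A carries the difference in RT112 cells cannot be told apart in this table.

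**Figure D2:**
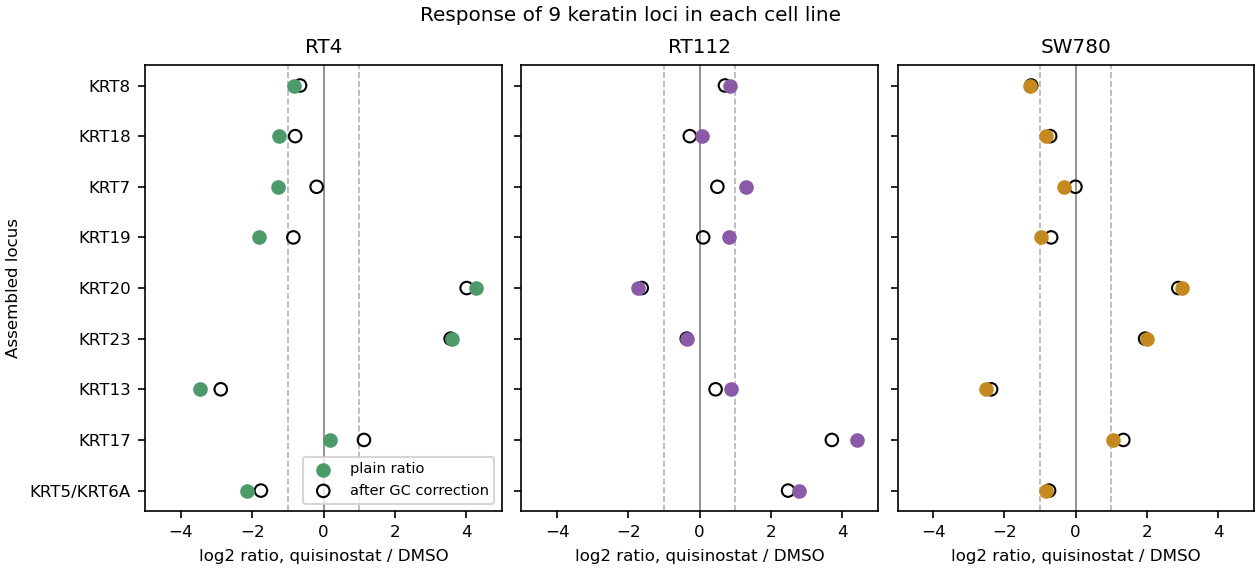
Log2 ratio of quisinostat over DMSO for the 9 keratin loci, 1 panel per line. Filled points are plain ratios, open circles are GC-corrected ratios, and dashed lines mark a 2-fold difference. KRT20 lies at 4.29, -1.72 and 2.98 and KRT17 at 0.17, 4.43 and 1.06 in RT4, RT112 and SW780 cells, and the correction moves KRT7 and KRT19 most toward 0.

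The 9 loci were then set against all loci by the direction of their plain ratios in the 3 lines. The study picked lower genes by a log2 ratio under -0.3 in all 3 lines, and the same size was used here for both directions. No member was over 0.3 in all lines, against 1035 of 9112 loci (11.4%), and none was under -0.3 in all lines, against 455 loci (4.99%). With only 9 loci, finding none is close to these shares. After GC correction, KRT17 was over 0.3 in all lines, as were 11.4% of the 8407 loci with a GC value. Counting 2-fold differences (log2 ratio past 1), 5 of 9 loci were under -1 in RT4 cells (KRT18, KRT7, KRT19, KRT13 and KRT5/KRT6A), where 14.1% of all loci were, and after GC correction 2 were (KRT13 and KRT5/KRT6A), beside 8.15% of loci. KRT20 and KRT23 were over 1 in RT4 cells, with 18% of all loci. In RT112 cells KRT7, KRT17 and KRT5/KRT6A were over 1 (13.8% of all loci) and KRT20 was under -1 (3.6%). After GC correction KRT7 dropped out there, at 0.50, beside 9.04% of loci over 1, and KRT20 stayed under -1 (3.4%). In SW780 cells KRT20, KRT23 and KRT17 were over 1 (10.5%) and KRT8 and KRT13 under -1 (7.35%), and the same loci were after GC correction (9.63% and 6.2% of loci).

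Of the 9 loci, 5 (KRT8, KRT7, KRT19, KRT13 and KRT5/KRT6A) were over 0.3 in RT112 cells and under -0.3 in both RT4 and SW780 cells. Among all loci, 670 of 9112 (7.35%) had this pattern. After GC correction, 3 members (KRT8, KRT13 and KRT5/KRT6A) and 2.38% of the loci with a GC value had it. With the median GC content over transcripts, KRT8 dropped out, at -0.26 in RT4 cells, and 2 members and 2.5% of loci had it. KRT5/KRT6A had the pattern through levels under 1 FPKM in RT4 and SW780 cells, where its ratios were -0.05 and -0.21 with 1 FPKM added. The median log2 ratio of the 9 loci was -1.25 in RT4 cells, 0.84 in RT112 cells and -0.82 in SW780 cells, beside medians near 0 for all loci, and -0.66, 0.45 and -0.69 after GC correction. In all, 7 of the 9 loci were past 0.3 in opposite directions in different lines, as were 29.3% of all 9112 loci. After GC correction 5 were (KRT7 and KRT19 dropped out), beside 18.1% of the loci with a GC value.

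**Figure D3:**
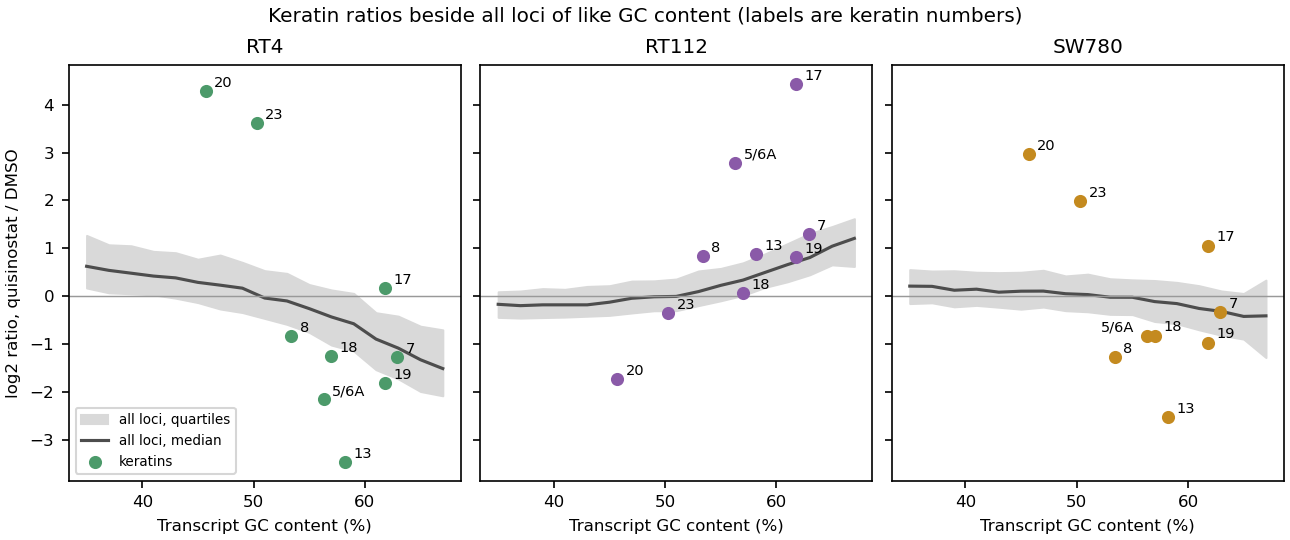
Plain log2 ratio of each keratin against the GC content of its transcript (%), beside the median (line) and quartiles (grey band) of all loci in bins of GC content, 1 panel per line. The band falls with GC content in RT4 and SW780 and rises in RT112 cells. KRT7 and KRT19 lie close to the band in RT112 cells, while KRT20, KRT23, KRT13 and KRT17 lie outside it in RT4 and SW780 cells.

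Taking the 3 lines as replicates, limma on log2(FPKM + 1) with cell line as a block called 0 of 9430 loci (0%) at an adjusted p-value of 0.05, where the lowest adjusted p was 0.161. At an unadjusted p under 0.05, 913 loci were higher and 392 lower, none of the 9 keratin loci among them. Without RT112 cells, 7 of the 9 were under this limit (KRT8, KRT18, KRT7, KRT19, KRT13, KRT20 and KRT23), with limma adjusted p from 0.123 (KRT13) to 0.209 (KRT7). That fit holds only RT4 and SW780 cells, with 1 residual degree of freedom. It leaves out the line in which the plain ratios of these 7 had the opposite sign, so it adds no separate support. Many other loci were under the limit in that fit too, 1173 of 9430 higher and 889 lower. KRT17 and KRT18 were under the limit with GC correction, where 1044 of 8646 loci were higher and 940 lower. KRT17 was also under it without the block (314 loci higher and 106 lower) and in 3 other alternatives. These were quantile normalization (638 and 570), rescaling to a common sum (954 and 354) and leaving out RT4 cells (522 and 240). KRT18 came nearest on the lower side, with a log2 fold change of -0.67 ± 0.28 (SE; limma, Benjamini-Hochberg adjusted p = 0.369). KRT17 came nearest on the higher side, at 1.87 ± 0.78 (SE; limma adjusted p = 0.369). KRT20 stood at 1.58 ± 0.83 (SE; limma adjusted p = 0.434), and KRT13 had the lowest value, -1.11 ± 0.63 (SE; limma adjusted p = 0.456). For KRT7, whose ratios in RT4 and RT112 cells are nearly equal in size and opposite in sign, the mean was -0.10 ± 0.47 (SE). Each fold change from the fit to all lines rests on 3 lines, and a p that misses the limit does not show that a keratin did not respond. Single lines decided several sizes: KRT17 was at 0.61 without RT112 cells, KRT20 at 0.41 without RT4 cells and 2.70 without RT112 cells, and KRT13 at -0.42 without SW780 cells and -2.10 without RT112 cells. KRT18 was at -0.38 without RT4 cells and -1.03 without RT112 cells.

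The total keratin message moved with the line as well. The summed level of the 9 loci went from 1439.1 to 678.4 FPKM in RT4 cells (log2 ratio -1.09), from 1655.4 to 1055.2 FPKM in SW780 cells (-0.65) and from 1213.2 to 2722.1 FPKM in RT112 cells (1.17). These sums, and the shares below, are of plain FPKM and were not GC-corrected. KRT8 (53.4% GC) and KRT7 (62.9%) bound the GC content of the keratins with most of this message. Across all loci, the median log2 ratio in bins centred on 53% and 63% GC was -0.10 and -1.08 for RT4 cells. It was 0.10 and 0.81 for RT112 cells, and -0.02 and -0.32 for SW780 cells. How much of the ratios of the sums goes with GC content was not tested. The 9 loci made up 91.7% to 98.9% of the FPKM of all 14 keratin loci in the table, and 0.268% to 1.05% of all FPKM. KRT7, KRT8, KRT18 and KRT19 together gave a smaller share of this message with quisinostat in every line, 76.7% against 93.8% in RT4, 43.8% against 60.6% in RT112 and 69.8% against 79.8% in SW780 cells. KRT17 took a larger share in each, 13.7% against 5.73% in RT4, 24.6% against 2.56% in RT112 and 25.7% against 7.87% in SW780 cells. KRT13 gave 35.5% of the RT112 DMSO message and 29% with quisinostat, although its level was higher, and it went from 12.1% to 3.3% in SW780 cells. KRT20 reached 9.24% in RT4 quisinostat cells and stayed under 1% in the other 5 libraries.

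Type I keratins exceeded type II keratins in all 6 libraries. Their share of the summed level was 66.8% with DMSO and 64.6% with quisinostat in RT4, 79.1% and 79.0% in RT112, and 68.3% and 70.9% in SW780 cells. While KRT17 differed 21.6-fold within RT112 cells, the share of type I moved with quisinostat by -2.2 points in RT4 cells, -0.1 in RT112 cells and 2.6 in SW780 cells. Over all 14 keratin loci the shares were 66.6% and 63.7%, 77.6% and 76.6%, and 67.6% and 66.9%, so in SW780 cells the direction depended on which keratins were counted.

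**Figure D4:**
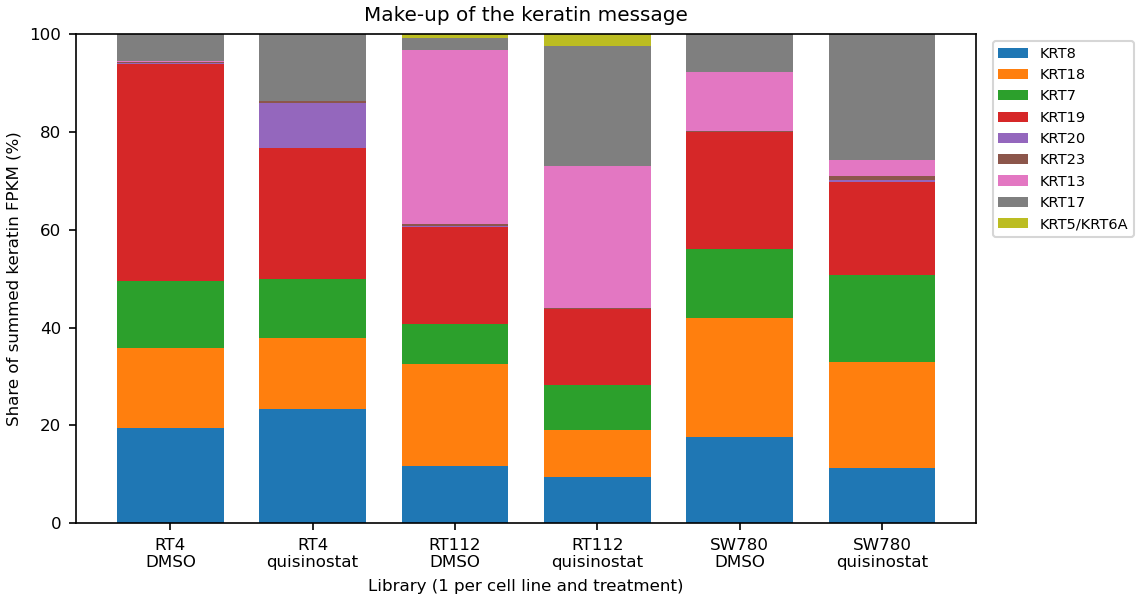
Share (%) of each keratin locus in the summed FPKM of the 9 loci, without GC correction, 1 bar per library. KRT8, KRT18, KRT7 and KRT19 at the bottom of each bar fill 93.8% in RT4 DMSO cells and 43.8% in RT112 quisinostat cells, KRT17 (grey) is wider in the quisinostat bar of every line, and KRT13 (pink) is wide in the RT112 bars.

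Of the keratins outside the 10, KRT80, a type II keratin of differentiating epithelium, was over 2-fold higher in all 3 lines (log2 ratios 1.69, 1.73 and 1.61 in RT4, RT112 and SW780 cells; FPKM 7.695 to 24.76, 24.48 to 81.17 and 24.33 to 74.08). KRT10, a keratin of upper epidermal layers, was over 0.3 in all lines (1.98, 0.37 and 0.63), but not after GC correction, which left 0.30 in RT112 cells. KRT15 and KRT16, basal and squamous type I keratins, were lower in RT4 and higher in RT112 cells like KRT5/KRT6A (KRT15 -3.29 and 1.98, KRT16 -4.47 and 1.97), at levels under 9 FPKM. In RT4 cells both genes were under 1 FPKM (KRT15 0.9821 to 0.1006, KRT16 0.9067 to 0.04099), so the size of those ratios rests on low values. In SW780 cells their ratios were -0.23 (KRT15) and -0.38 (KRT16). KRT4, the usual partner of KRT13, went from 2.929 to 12.23 FPKM in RT112 cells and from 0.8139 to 0.03737 FPKM in SW780 cells. It was listed at 0 in RT4 DMSO cells, so no ratio was taken there.

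Genes of the proteins that hold keratin filaments to the cell membrane were mixed. Of 26 genes of desmosomes, hemidesmosomes and keratin linkers, 20 were in the table and 17 had ratios. Of the 17, 6 were over 0.3 in all 3 lines (11.4% of all loci were) and none was under -0.3 in all 3 (4.99%). After GC correction 6 were over (11.4% of the loci with a GC value) and 2 under (7.73%). DSP, the plakin that ties keratins to desmosomes, went from 10.45 to 28.05 FPKM in RT4, from 19.3 to 39.97 in RT112 and from 11.92 to 28.99 in SW780 cells (log2 ratios 1.42, 1.05 and 1.28). LAMA3, a chain of the laminin under hemidesmosomes, had log2 ratios of 2.71, 1.84 and 2.21. The list's median was 0.42, 1.05 and 0.10, beside medians of 0.08, 0.06 and 0.04 over all loci. Others had the signs of KRT8 in their plain ratios: PPL (-0.53, 0.77 and -0.67), EVPL (-2.32, 0.46 and -0.50), PKP3 (-2.43, 1.09 and -0.93), FAM83H (-2.05, 0.67 and -1.45) and JUP (-0.57, 1.33 and -0.08). After GC correction none of them kept these signs in every line. PPL was then at 0.18, 0.24 and -0.47, and JUP at 0.36, 0.64 and 0.19. EVPL was at -1.04, -0.51 and -0.11, PKP3 at -0.98, -0.02 and -0.49, and FAM83H at -0.65, -0.40 and -1.03.

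Of 16 genes of the cornified envelope, the protein shell of squamous cells, 5 had ratios. CSTA was over 0.3 in all 3 lines (1.27, 0.88 and 1.25), and SPRR3 was under -1 in all 3 (-1.20, -1.23 and -1.89). IVL, which encodes involucrin, had log2 ratios of -2.43, 0.48 and -0.67, the same signs as KRT13, and 0.01 in RT112 cells after GC correction. Of 15 genes of other intermediate filaments, 5 were in the table and 4 had ratios, and the lamin LMNB1 was under -0.3 in all lines (-1.33, -0.51 and -1.46). VIM, the filament of mesenchymal cells, was not analysed here.

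Among 24 regulators of epithelial and keratin genes, 20 had ratios. KLF4, a factor of differentiating epithelium, was over 2-fold higher in all 3 lines (1.99, 3.68 and 1.99), from DMSO levels of at most 1.769 FPKM. TFAP2A was over 0.3 in all 3 (0.59, 0.53 and 0.57) and KLF5 under -0.3 in all 3 (-0.75, -0.45 and -0.52). TP63, the basal cell factor, was nearly level by its plain ratios in RT4 (-0.25) and RT112 cells (0.28), and higher in SW780 cells (1.22). After GC correction TP63 was no longer level: it was lower in RT4 (-0.64) and higher in RT112 cells (0.44), with 1.11 left for SW780 cells. The luminal factor GATA3 had the signs of KRT8 (-1.18, 0.86 and -0.68), and the luminal factors FOXA1 (-0.37, -0.19 and -0.32) and PPARG (-0.09, -0.75 and -0.17) were lower in each line, mostly by little. Among the epithelial surface markers, EPCAM (0.60, -0.39 and 0.32) and CDH1 (0.32, 0.28 and 0.32) were higher in RT4 and SW780 cells, unlike KRT8. So was the locus that CLDN7 shares with other genes (0.56, 0.29 and 0.18), where the part of CLDN7 is not known. CLDN4 (-1.15, 0.52 and -0.38) had the signs of KRT8.

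**Figure D5:**
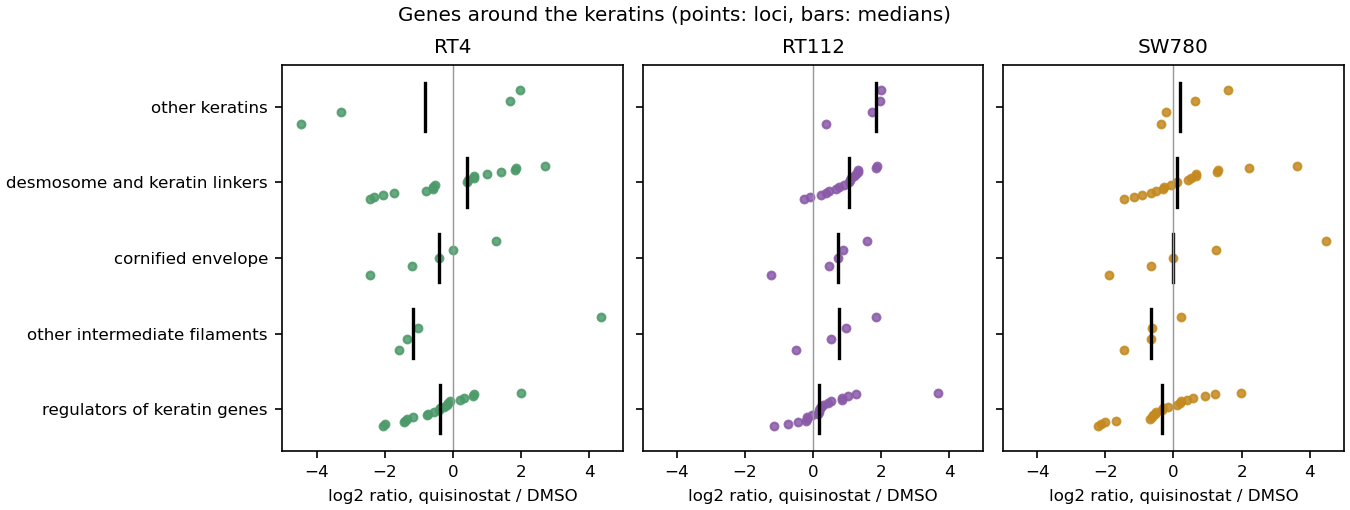
Log2 ratio of quisinostat over DMSO for single loci (points) of 5 lists of genes around the keratins, with the median of each list as a bar, 1 panel per line. The desmosome and linker genes have medians of 0.42, 1.05 and 0.10 in RT4, RT112 and SW780 cells, and points of every list lie on both sides of 0 in RT4 and SW780 cells.

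Over the 6 libraries, KRT13, KRT5/KRT6A and KRT20 had the widest ranges on the log2(FPKM + 1) scale, 9.25, 6.06 and 5.58. The loci most like them were named by Pearson's correlation on this scale, which is a description over 6 libraries in 3 lines. PDZK1 (r = 0.998), GABRP (0.994) and CACNG6 (0.992) were most like KRT5/KRT6A, each highest in RT112 quisinostat cells (10.31, 10.02 and 3.958 FPKM). SNX27 (0.998), MAN1A2 (0.987) and SLC39A6 (0.986) were most like KRT20, and each was highest in RT4 quisinostat cells (10.12, 10.23 and 78.58 FPKM). AC244153.1 (0.993), TOR4A (0.988) and KDELR3 (0.988) were most like KRT13. In all, 42 of 8393 loci had r over 0.95 with KRT13, 31 of 8394 with KRT5/KRT6A and 75 of 8393 with KRT20.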

How the data were processed

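RNA-seq of 3 bladder cancer lines was used, 1 library per line and treatment (DMSO or quisinostat), grouped by the labels. The authors made stranded poly(A) libraries, sequenced them on a NovaSeq, aligned with HISAT2, assembled with StringTie and took gene values from Ballgown. The submitters' processing notes list CASAVA 1.8.2, Trimmomatic 0.36, HISAT2 2.2.1, SAMtools 1.15.1, StringTie 2.2.1 and GRCh38. The annotation release is not given in the sources used here. The deposited values are FPKM, already divided by length and library size, with no GC correction stated, and hold no read counts, so depth and counting error are unknown.

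A single value per assembled locus was used (10066 loci). Log2 ratios used no pseudocount, over the 9112 loci above 0 in all libraries. limma 3.58.1 (R 4.3.3) was run on log2(FPKM + 1), with a mean-variance trend, over loci with mean FPKM of at least 1, and Benjamini-Hochberg adjustment. The block was the cell line, shared by a DMSO and a quisinostat library. Adding 1 FPKM makes fold changes of low genes too small. The GC correction subtracted a lowess curve (span 0.3; statsmodels 0.14.6) fitted in each line on the GC content of the longest protein-coding transcript in GENCODE 29, known for 92.3% of loci. Spearman's correlation of ratio with GC content was then -0.007 in RT4 cells, 0.008 in RT112 cells and -0.006 in SW780 cells. Both steps were run on simulated data as a check of the code. The limma simulation used a fixed spread and not that of these data, so the power of limma here was not tested. Sequences were compared with Biopython 1.88, and promoters are from RefSeq.

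The keratins, lists and limits were chosen with earlier results of these data known. All 10 keratins were named. Listed genes were named if past 2-fold in the same direction in all lines or if they define a list. The genes named outside this rule (KRT10, KRT15, KRT16, KRT4, CSTA, TFAP2A, KLF5, LMNB1, UPK1A, UPK1B, UPK2, UPK3A, UPK3B, CLDN4, CLDN7, PPL, EVPL, PKP3, FAM83H, JUP and LUM) were chosen after their values were seen, and COL1A1, a fibroblast marker that met it, had log2 ratios of 3.79, 3.06 and 3.18 in RT4, RT112 and SW780 cells. Alternatives were other pseudocounts, filters and scalings, the GC correction, leaving out a line, and, in limma, fits without the trend or the block and with quantile normalization.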

Additional observations from a re-analysis of the deposited data

Results flagged for a closer look

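Of the 9 keratin loci, 7 were past 0.3 on the log2 scale in opposite directions in different lines, with 1 library per line and treatment, so that the difference between lines was not tested for any of them. Of all 9112 loci, 29.3% did the same, and after GC correction 5 of the 9 keratin loci and 18.1% of loci did. The log2 ratio in RT112 cells was above that in RT4 cells by 4.93 for KRT5/KRT6A, by 4.33 for KRT13, by 2.63 for KRT19 and by 2.58 for KRT7. For KRT8 the widest gap was between RT112 and SW780 cells, at 2.11. For KRT20 the ratio in RT4 cells was above that in RT112 cells by 6.01, and for KRT23 by 3.96. Dose (50 nM in RT4, 25 nM in SW780 and 10 nM in RT112 cells) and line cannot be told apart in these gaps.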

How the results depend on the processing

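Rescaling, centring and a filter on low values left all 27 log2 ratios of the members within 0.3 of the values given. GC correction moved 12 of the 27 by over 0.3, and the sign changed for KRT18 in RT112 cells alone, from 0.07 to -0.28. It left 2 members under -1 in RT4 cells in place of 5 and put 1 member (KRT17) over 0.3 in all lines. With the median GC content over transcripts, an alternative chosen after seeing the data, these counts were 2 and 1, and 1 member (KRT18) was under -0.3 in all lines, as were 7.57% of the loci with a GC value. A pseudocount of 0.1 moved 4 ratios by over 0.3 and a pseudocount of 1 moved 8, which left 0 members under -1 in RT112 cells. Leaving out 1 line at a time, 0 to 2 members were over 0.3 in the other lines, and 0 to 6 under -0.3, with 2 and 6 when RT112 cells were left out. A limit over fewer lines is passed more easily by any locus. The share of all loci passing it was not taken, so these counts cannot be set against a background. With 1 line left out, the limma fold change of KRT7 ranged from -0.791 (without RT112) to 0.488 (without RT4, and 0.018 without SW780), that of KRT8 from -1.042 (without RT112) to 0.007 (without SW780) and that of KRT5/KRT6A from -0.129 (without RT112) to 1.307 (without SW780). KRT7 was at 0.053 with GC correction in limma (added after seeing the data). The causes were not tested. limma called 0 loci under every alternative, with lowest adjusted p from 0.0523 (GC correction) to 0.97 (without SW780 cells). With no replicate block it gave 314 loci higher and 106 lower at an unadjusted p under 0.05, and KRT17 was then under that limit (0.0363 against 0.0569 with the block). At an adjusted p of 0.05 the block changed no call. At the unadjusted limit, 0 to 7 of the 9 keratin loci passed with 1 line left out, which leaves 2 lines and 1 residual degree of freedom. The 7 passed without RT112 cells, where 1173 of all 9430 loci were higher and 889 lower. Without SW780 cells 0 passed, beside 390 loci higher and 74 lower.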
